A study of Mus musculus with 4 samples.

Results

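The transcription factors that set the myeloid lineages were examined in tumor-associated macrophages (TAMs). The set comprised 9 genes out of the 54146 genes listed: Spi1, Maf, Cebpa, Cebpb, Cebpd, Irf4, Irf5, Irf8 and Klf4. They were chosen by symbol, through their Ensembl identifiers in the GENCODE M21 annotation of the mouse genome. All 9 had enough counts to be tested. Subcutaneous MCA205 tumors, grown from a transplanted mouse fibrosarcoma line, were dissociated, CD45+ cells were enriched with magnetic beads, and viable cells positive for CD11b and F4/80 were sorted by flow cytometry. The hosts were female mice of 8 to 16 weeks. The study grew MCA205 tumors in C57BL/6 mice and, in a separate experiment, in nude mice, and the sources do not state the strain of the hosts of these libraries. Control mice are labelled vehicle, and treated mice had propranolol, a nonselective blocker of beta-adrenergic receptors, in the drinking water at 0.5 g/L from the day the tumor cells were injected. Poly-adenylated RNA was sequenced in 2 libraries of each group, and both groups carried the same tumor and no other agent. The study describes the libraries of a group as biological replicates. The labels do not say whether a library came from 1 mouse or a pool, and p-values measure the spread between these libraries.

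These factors act in layers. PU.1, the product of Spi1, is an ETS factor needed to make monocytes, macrophages and B cells, and it opens the enhancers that other factors use. C/EBP factors share a leucine zipper and act at different stages: C/EBPα drives the granulocyte and monocyte lineage, and C/EBPβ and C/EBPδ respond to inflammation. IRF8 directs precursors to monocytes and dendritic cells and often binds next to PU.1, IRF5 carries Toll-like receptor signals to inflammatory cytokine genes, and IRF4 is linked to IL4-driven macrophage polarization. KLF4 promotes monocyte differentiation and IL4 responses, and c-MAF, the product of Maf, supports a resident-like program and Il10. Beta-adrenergic receptors raise cAMP, which acts on genes through CREB at cAMP response elements (CRE).

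The genomic stretches before the start of 3 of the genes are shown because they hold the core of the element at which CREB acts, or an element of the response to interferon gamma. The sequences are those of RefSeq on GRCm38.p6 and cover 250 bases upstream of the annotated start, 5′ to 3′ on the strand of the gene. Of the 9 genes, 6 were matched in the promoter table. Motifs were searched on both strands, and capitals mark TGACG, the CRE core, in Cebpb and Klf4 and TTCNNNGAA, the gamma-activated site (GAS), in Irf8. Cebpb lies before the start on the plus strand at chr2:167688665-167688914, Klf4 on the minus strand at chr4:55532476-55532725, and the Irf8 stretch belongs to the first of its 2 starts on the plus strand at chr8:120736108-120736357.
Cebpb: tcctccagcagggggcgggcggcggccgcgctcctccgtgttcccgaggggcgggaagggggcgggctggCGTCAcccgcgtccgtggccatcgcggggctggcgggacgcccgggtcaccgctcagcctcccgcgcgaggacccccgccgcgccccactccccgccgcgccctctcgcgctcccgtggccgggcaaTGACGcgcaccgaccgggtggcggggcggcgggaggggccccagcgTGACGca
Klf4: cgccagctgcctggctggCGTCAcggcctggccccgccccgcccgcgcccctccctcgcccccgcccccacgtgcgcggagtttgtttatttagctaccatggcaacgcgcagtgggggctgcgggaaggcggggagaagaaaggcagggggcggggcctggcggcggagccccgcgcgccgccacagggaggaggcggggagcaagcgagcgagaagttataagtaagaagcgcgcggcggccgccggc
Irf8: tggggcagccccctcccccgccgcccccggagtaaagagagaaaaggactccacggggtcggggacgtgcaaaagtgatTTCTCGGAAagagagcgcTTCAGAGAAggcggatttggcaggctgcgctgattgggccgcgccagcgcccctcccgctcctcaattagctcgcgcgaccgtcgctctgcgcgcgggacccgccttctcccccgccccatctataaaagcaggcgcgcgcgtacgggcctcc

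The Cebpb stretch held the CRE core 3 times, with first bases 180, 53 and 7 bases before the start. Klf4 held it 1 time, at 232 bases. The core was present in 17.77% of 32851 mouse promoters of the same length, and the stretches of Cebpa, Irf4, Irf5 and Irf8 did not contain these letters. Irf8 held 2 GAS matches, at 171 and 153 bases, and GAS was found in 7.02% of all promoters. The complete palindromic element TGACGTCA, which contains the core, occurred in 1.55% of promoters and in none of the 6 matched genes. Neither did these stretches hold TTGCNNAA, a C/EBP motif (9.56% of promoters). A match describes the letters and shows no binding.

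The libraries held 13798249 and 23018142 counts for control replicates 1 and 2, and 39818103 and 16424081 for propranolol replicates 1 and 2. Expression in each library is given in CPM, counts scaled to the library size after TMM normalization, a scaling that balances the composition of libraries. CPM was used to compare a gene between libraries. Levels of different genes were compared in TPM, counts per length over all exons of a gene, scaled to the same total in every library.

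Per length, Spi1 was the most highly expressed of the 9 factors in both groups, and Irf4 was the lowest. In control TAMs the mean TPM was 591 ± 16.9 (SD, n = 2) for Spi1, 345 for Cebpb, 335 for Irf5, 298 for Cebpa, 220 for Maf, 197 for Irf8, 60.5 for Klf4, 39.3 for Cebpd and 7.96 for Irf4. The library ranges of Cebpb overlapped those of Irf5 and Cebpa, as did those of Maf and Irf8, so the order within those 3 pairs was not resolved. After propranolol the mean TPM of Spi1 was 745 ± 9.86 (SD, n = 2), and it was followed by Cebpb at 373, Irf5 at 341, Cebpa at 248, Irf8 at 205, Maf at 201, Klf4 at 75.6, Cebpd at 37.2 and Irf4 at 6.28. Of all pairs, Irf8 and Maf alone overlapped there.

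The middle of this order depended on the length used. With TPM over the longest transcript, Irf8, whose exons cover 7055 bases in all and 3469 in that transcript, had a mean of 311 in control and 322 after propranolol. It then came in both groups after Spi1 (608 and 760) and Irf5 (337 and 340.5) and ahead of Cebpb (268 and 288), Cebpa (233 and 192) and Maf (221 and 201). On that length 4 pairs overlapped in control (Maf with Cebpa and Cebpb, and Cebpb with Cebpa and Irf8), and after propranolol it was Maf and Cebpa. Spi1 was highest, and Klf4, Cebpd and Irf4 were the 3 lowest in that order, with either length.

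**Figure D1:**
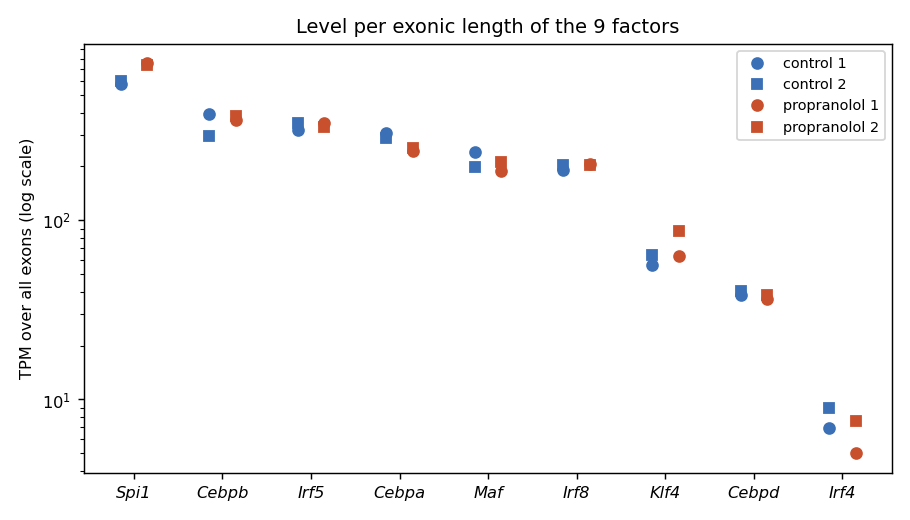
Level per exonic length of the 9 factors, in TPM over all exons on a log axis, for the control libraries (blue) and the propranolol libraries (orange), with circles for replicate 1 and squares for replicate 2. Spi1 lies highest, between 579 and 752 TPM, and Irf4 lowest, at no more than 8.98 TPM.

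To ask whether propranolol altered the expression of these factors, the groups were compared with edgeR (quasi-likelihood test) over all 14688 tested genes. A call required a Benjamini-Hochberg adjusted p under 0.05 together with a difference exceeding 1.5-fold. None of the 9 factors was called changed, where 27.8% of all tested genes were (12.2% higher and 15.6% lower). DESeq2 and limma-voom also called 0 of 9, where they called 25.7% and 27.1% of all tested genes. By edgeR 5 of 9 had an unadjusted p under 0.05, as did 50.5% of all tested genes. At the adjusted p alone, 4 of 9 were higher by edgeR, namely Spi1, Klf4, Irf8 and Irf5, where 42.2% of all tested genes passed (21.8% higher and 20.4% lower). The median log2 fold change of the 9 factors was 0.27, that of all tested genes was -0.02, and 7 of the 9 values were above 0. In bulk RNA, a change in the number of cells of a type and a change in RNA per cell cannot be told apart.

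Both propranolol libraries lay above both control libraries for 6 factors (Spi1, Cebpb, Cebpd, Irf5, Irf8 and Klf4), a pattern shown by 35.8% of all tested genes. The groups overlapped for Maf, Cebpa and Irf4. Groups apart in either direction were seen for 72.6% of all tested genes. These differences depended on the scaling. Without the TMM factors the log2 ratio of mean levels shifted by -0.23 for the median tested gene, and it was 0.34 for Spi1, 0.33 for Klf4, 0.12 for Cebpb, 0.066 for Irf8, 0.034 for Irf5, -0.073 for Cebpd, -0.12 for Maf, -0.26 for Cebpa and -0.34 for Irf4.

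**Figure D2:**
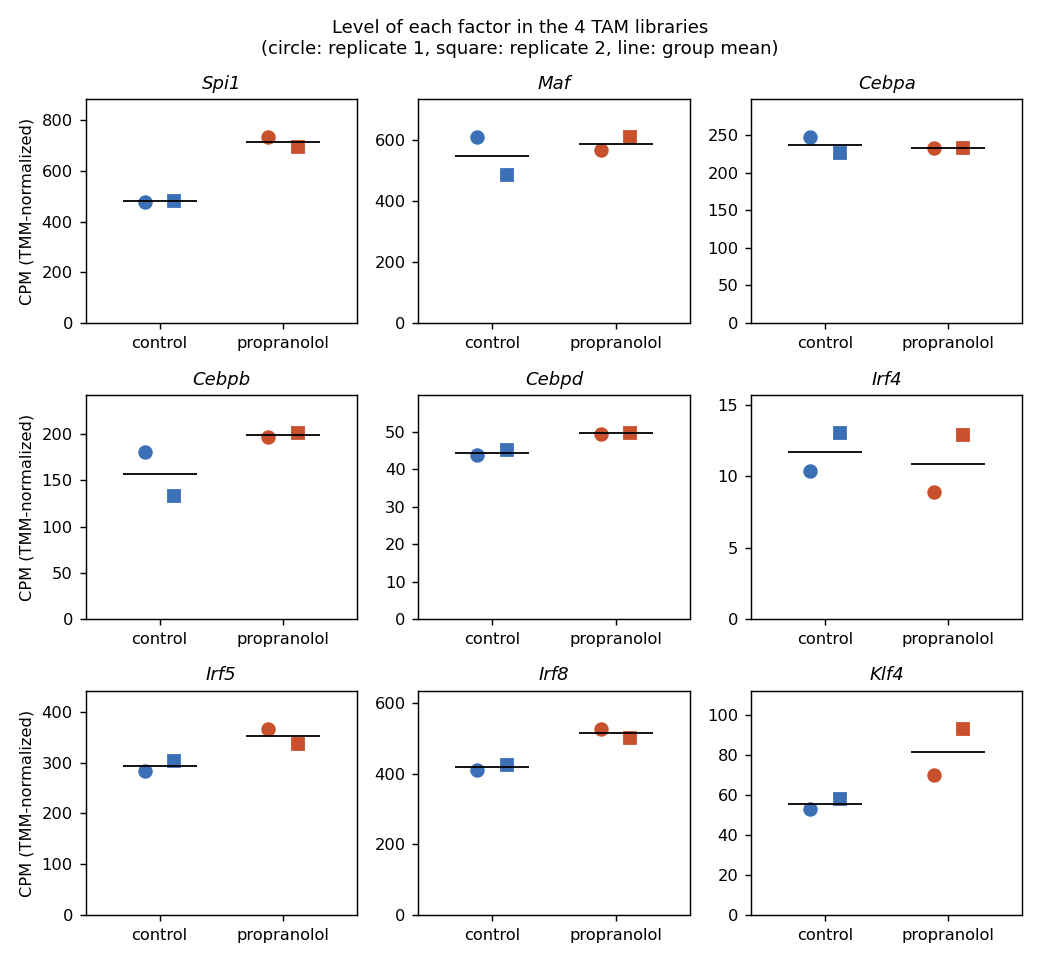
Level of each factor in the 4 libraries, in TMM-normalized CPM on axes that start at 0, with control in blue, propranolol in orange, circles for replicate 1, squares for replicate 2 and a line at each group mean. The gap between the groups is widest relative to the spread for Spi1, at 477 and 482 CPM against 734 and 693 CPM.

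Spi1 (ENSMUSG00000002111.8, chr2:91082390-91115756, plus strand) showed the clearest difference between the groups with all 4 libraries and before removal of the GC trend described below. Its level was 477 and 482 CPM in the control libraries and 734 and 693 CPM in the propranolol libraries. The controls were nearly equal, and both propranolol libraries stood well above them. The log2 fold change was 0.57 ± 0.09 (SE), a 1.49-fold difference with a 95% interval of 1.29 to 1.71, and the adjusted p by edgeR was 0.000877. The estimate fell just short of the 1.5-fold criterion, and it passed when control replicate 1 (0.62), control replicate 2 (0.60) or propranolol replicate 2 (0.65) was left out, but not without propranolol replicate 1 (0.53). In that last fit the Klf4 value was larger, at 0.75. With the GC trend removed, Spi1 was at 0.24 (adjusted p by edgeR = 0.104), and Cebpa, Cebpb and Maf had lower adjusted p-values, none under 0.05.

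Of the 3 C/EBP factors, Cebpb, like Cebpd an inflammation-responsive member, had the highest mean level per length, in control without being apart from Cebpa. It had the largest difference with the TMM factors, but not without them (0.12, against -0.26 for Cebpa), per macrophage markers (log2 ratio 0.014, against -0.36 for Cebpa) or without control replicate 2 (0.16, against 0.20 for Cebpd). Cebpb (ENSMUSG00000056501.3, chr2:167688915-167690418, plus strand) was at 181 and 133 CPM in control and at 197 and 202 CPM after propranolol. The propranolol libraries were close together and above both controls, and control replicate 2 was the low library. The log2 fold change of 0.35 ± 0.14 (SE) did not pass by edgeR (adjusted p = 0.0637), and it had an adjusted p of 0.0423 by DESeq2 and 0.0444 by limma-voom, under 1.5-fold in each. Its value depended most on which control was left out: without control replicate 1 it was 0.64 and without control replicate 2 it was 0.16. Without propranolol replicate 1 or 2 it was 0.37 and 0.36, and without a filter on low counts it was 0.42 (adjusted p by edgeR = 0.00106). Exons of Tmem189, on the other strand, cover 20.7% of the Cebpb exons. The stated counting parameters name no strand option, and without strand the reads of the shared stretch cannot be assigned to either gene.

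Cebpa (ENSMUSG00000034957.10, chr7:35119293-35121928, plus strand), the lineage-determining member, was at 247 and 226 CPM in control and at 232 CPM in both propranolol libraries. The propranolol libraries lay between the controls. The log2 fold change was -0.03 ± 0.10 (SE, adjusted p by edgeR = 0.847), and the 95% interval of the fold, 0.846 to 1.14, stayed within 1.5-fold in either direction. Cebpd (ENSMUSG00000071637.5, chr16:15887286-15891031, plus strand) was at 43.7 and 45.0 CPM in control and at 49.4 and 49.7 CPM after propranolol. Replicates were close and the groups did not overlap, but the difference was small (log2 fold change 0.16 ± 0.11 SE, adjusted p by edgeR = 0.282, fold interval 0.940 to 1.32). Spidr exons on the other strand cover 15.0% of the Cebpd exons.

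The balance of Cebpb to Cebpa within a library was also compared, since these factors dominate at different stages of myeloid life. The ratio of their TPM values was 1.28 and 1.03 in control and 1.49 and 1.52 after propranolol. Both propranolol libraries had the higher ratio, and the controls differed from each other by about as much as control replicate 1 differed from the propranolol libraries. No test was made of this ratio, and no share over all gene pairs is given beside it.

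Among the interferon regulatory factors, Irf8 and Irf5 were modestly higher at the adjusted p with TMM scaling, and Irf4 did not pass. Irf8 (ENSMUSG00000041515.10, chr8:120736358-120756694, plus strand) was at 411 and 426 CPM in control and at 529 and 501 CPM after propranolol. The libraries of the groups were apart, with a log2 fold change of 0.30 ± 0.09 (SE, adjusted p by edgeR = 0.0241) and a fold interval of 1.07 to 1.42. Irf5 (ENSMUSG00000029771.12, chr6:29526625-29541871, plus strand) was at 283 and 302 CPM in control and at 367 and 337 CPM after propranolol. These groups were apart as well, and the log2 fold change of 0.27 ± 0.10 (SE) was close to the limit of the test (adjusted p by edgeR = 0.0486, fold interval 1.04 to 1.40). With a library left out, the log2 fold change ranged from 0.26 to 0.37 for Irf8 and from 0.21 to 0.36 for Irf5. With upper-quartile scaling neither passed (adjusted p by edgeR = 0.0518 for Irf8 and 0.102 for Irf5), and with a filter at 1 CPM in every library of a group Irf5 did not pass (0.0539). After removal of the GC trend described below, Irf5 changed sign, to -0.04 (adjusted p by edgeR = 0.798), and Irf8 was at 0.17 (0.199). Tnpo3 exons on the other strand cover 14.1% of the Irf5 exons.

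Irf4 (ENSMUSG00000021356.10, chr13:30749226-30766976, plus strand) was at 10.4 and 13.1 CPM in control and at 8.88 and 12.9 CPM after propranolol. The replicates of each group differed by more than the groups did, and the interval of the fold was wide (0.642 to 1.30, adjusted p by edgeR = 0.676). The TPM of Irf5 relative to Irf8 was 1.67 and 1.72 in control and 1.69 and 1.63 after propranolol, so this pair overlapped between groups. That of Irf8 relative to Irf4 was 27.5 and 22.6 in control against 41.3 and 27.0, which also overlapped. The TPM of Spi1 relative to Irf8, its frequent partner, was 3.04 and 2.96 in control and 3.64 and 3.62 after propranolol. Here the groups were apart, without a test. Of all tested genes taken singly, 72.6% had groups apart in CPM, and no share over gene pairs is given. The GC content was 58.9% for Spi1 and 51.7% for Irf8. Their log2 fold changes were 0.57 and 0.30, and 0.24 and 0.17 after removal of the GC trend described below. Over the longest transcript the ratio of Irf5 to Irf8 was 1.07 and 1.10 in control and 1.08 and 1.04 after propranolol, that of Irf8 to Irf4 was 54.3 and 44.7 against 81.7 and 53.3, and that of Spi1 to Irf8 was 1.98 and 1.93 against 2.37 and 2.36. The size of these ratios thus depended on the length. A change of length multiplies a ratio by the same factor in every library, so the overlap of the groups could not change.

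Klf4 (ENSMUSG00000003032.8, chr4:55527143-55532466, minus strand) was at 52.8 and 58.2 CPM in control and at 70.2 and 93.2 CPM after propranolol. Both propranolol libraries were above the controls, and propranolol replicate 2 was the highest by some distance. The log2 fold change was 0.55 ± 0.14 (SE, adjusted p by edgeR = 0.0112), with a fold interval of 1.18 to 1.82. It exceeded 1.5-fold without control replicate 2 (0.64) or without propranolol replicate 1 (0.75) and was lowest, at 0.37, without propranolol replicate 2.

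Maf (ENSMUSG00000055435.6, chr8:115682942-115707794, minus strand) was at 610 and 484 CPM in control and at 566 and 611 CPM after propranolol. Control replicate 1 was about as high as the highest propranolol library, and control replicate 2 was the low library. The log2 fold change was 0.11 ± 0.12 (SE, adjusted p by edgeR = 0.499), and the fold interval of 0.898 to 1.29 lay within 1.5-fold.

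The fold changes of all genes followed their GC content, and so the 9 factors were also read against genes of similar GC. The rank correlation of log2 fold change with GC was 0.577 across 14681 genes, which are not independent replicates. The median log2 fold change was -0.94 in the lowest GC decile and 0.46 in the highest. In the libraries themselves, the lowest decile deviated from the mean of the 4 libraries by 0.49 and 0.44 in control and by -0.37 and -0.51 after propranolol, and the highest by -0.26 and -0.21 and by 0.20 and 0.29. The GC trend separated the libraries by group, so the trend and the treatment cannot be told apart in this design.

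Spi1 (58.9% GC), Cebpa (62.6%) and Cebpb (67.2%) lie in the highest GC decile. Against its median of 0.46, Spi1 was slightly above at 0.57, Cebpb slightly below at 0.35 and Cebpa well below at -0.03. Klf4 at 0.55 was above the median of its decile, 0.37, and Irf5 at 0.27 was below its own, 0.47. Irf8 (0.30) and Cebpd (0.16) share a decile with a median of 0.27, and Maf (0.11) and Irf4 (-0.13) share one with a median of -0.17.

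**Figure D3:**
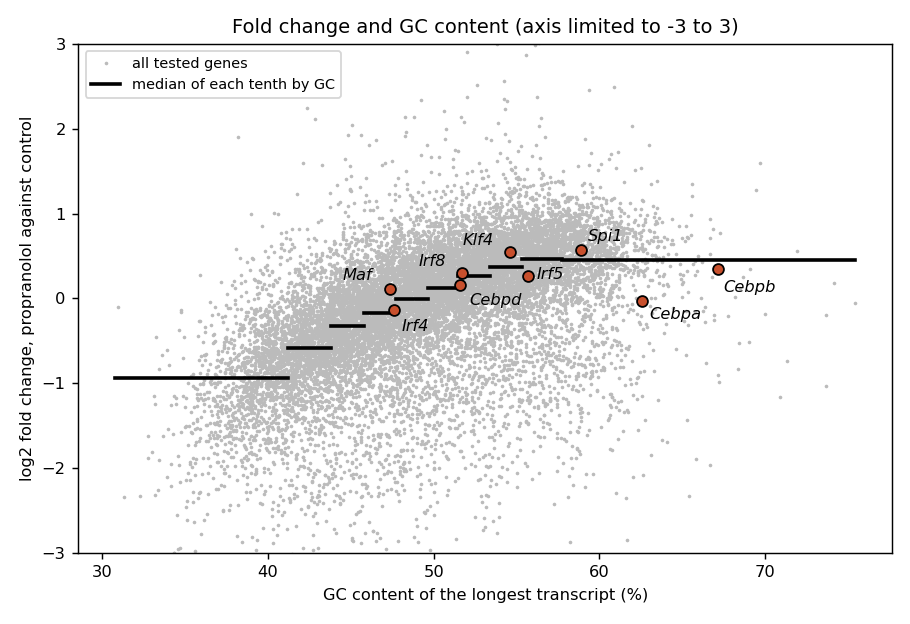
Fold change of all tested genes (grey) against the GC content of the longest transcript in percent, on a log2 axis limited to -3 to 3, with the median of each GC decile as a black line and the 9 factors in orange. The decile medians climb from -0.94 to 0.47 in decile 9 and are at 0.46 in the highest. Spi1, Klf4, Maf, Irf8 and Irf4 lie above the median of their decile, and Cebpa lies well below it.

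The test was repeated after the smooth GC trend had been subtracted within each library. None of the 9 factors then passed an adjusted p of 0.05 by edgeR, where 24.1% of all tested genes did. None was called with the 1.5-fold criterion either, where 12.6% of all tested genes were (7.64% higher and 4.97% lower). The median of the 9 became 0.17, against 0.09 for all tested genes. Spi1 went to 0.24 (adjusted p by edgeR = 0.104), Klf4 to 0.27 (0.160), Irf8 to 0.17 (0.199) and Irf5 to -0.04 (0.798). Cebpb barely moved, at 0.34 (adjusted p by edgeR = 0.0733). Cebpa became lower, at -0.28 (0.0624), and Maf became higher, at 0.31 (0.0869), both without passing. The remaining values were 0.04 for Cebpd and 0.05 for Irf4. At an unadjusted p under 0.05, 4 of 9 passed (Spi1, Maf, Cebpa and Cebpb), beside 37.2% of all tested genes.

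Each library bore on these corrected values. Without control replicate 1 the corrected value was 0.53 for Maf and 0.52 for Cebpb. Without control replicate 2 it was 0.16 for Maf and 0.12 for Cebpb. Without propranolol replicate 1, Klf4 was at 0.45 and Spi1 at 0.15. Without propranolol replicate 2, Spi1 was at 0.35, Cebpb at 0.37 and Klf4 at 0.12. None of these reached 1.5-fold.

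**Figure D4:**
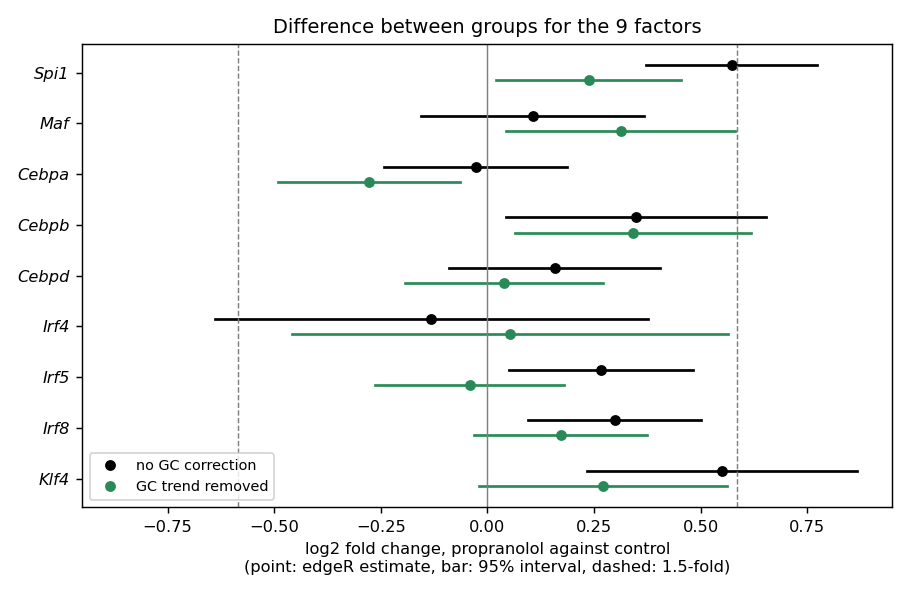
Log2 fold change of each factor, propranolol against control, with its 95% interval, not adjusted for the number of genes, before (black) and after (green) removal of the GC trend; dashed lines mark 1.5-fold. Every point lies within the dashed lines, and the Spi1 point moves from 0.57 to 0.24.

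Other transcription factors of the same families and of myeloid cells were counted in the same way. Of the other 118 transcription factors listed, 109 were tested, 13 rose and 15 fell by edgeR, beside 12.2% and 15.6% of all tested genes. After removal of the GC trend 4 were higher and 6 lower, beside 7.64% and 4.97% of all tested genes. No test compared the 9 factors with the others.

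In the C/EBP family the other 3 listed members were called, 2 higher and 1 lower, beside 12.2% and 15.6% of all tested genes. Cebpe, a granulocyte factor, was at 1.69 and 1.75 CPM in control and at 5.50 and 3.34 CPM after propranolol (log2 fold change 1.38 ± 0.37 SE, adjusted p by edgeR = 0.0140). Ddit3, the stress-induced member also named CHOP, rose by 0.68 on the log2 scale. Cebpg, a partner that lacks a transactivation domain, fell by 0.87, from 68.8 and 61.2 CPM to 41.0 and 29.4 CPM. With the GC trend removed, Ddit3 remained called at 1.02 and the other pair did not (1.10 for Cebpe and -0.35 for Cebpg). Of all tested genes, 12.6% were called there.

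The family counts that follow include the 9 factors. They stand beside 12.2% of all tested genes that rose and 15.6% that fell, and beside 7.64% and 4.97% without the GC trend. In the IRF family 1 of 9 rose, Irf7, the amplifier of type I interferon, from 295 and 281 CPM to 504 and 471 CPM (log2 fold change 0.76, and 0.46 without the GC trend). Of 12 tested KLF genes, 0 rose and 2 fell: Klf9 by 1.25 and Klf6, the most abundant, by 0.64. Without the GC trend neither was called, 0 KLF genes were called in either direction, and Klf6 was at -0.03. In the MAF family, Mafk, a small MAF protein that pairs with NRF2 and BACH1, rose by 0.74 (0.42 without the trend). Of 15 tested ETS genes, Ets2 rose by 0.61 and 4 fell, among them Ets1 (-1.15), Gabpa (-1.02) and Elk4 (-0.78). Ets1, prominent in lymphocytes, and Elk4 remained called without the GC trend, at -0.94 and -0.66, and Gabpa did not, at -0.30. Ets2 did not remain called without the GC trend or with upper-quartile scaling, where 0 ETS genes rose.

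**Figure D5:**
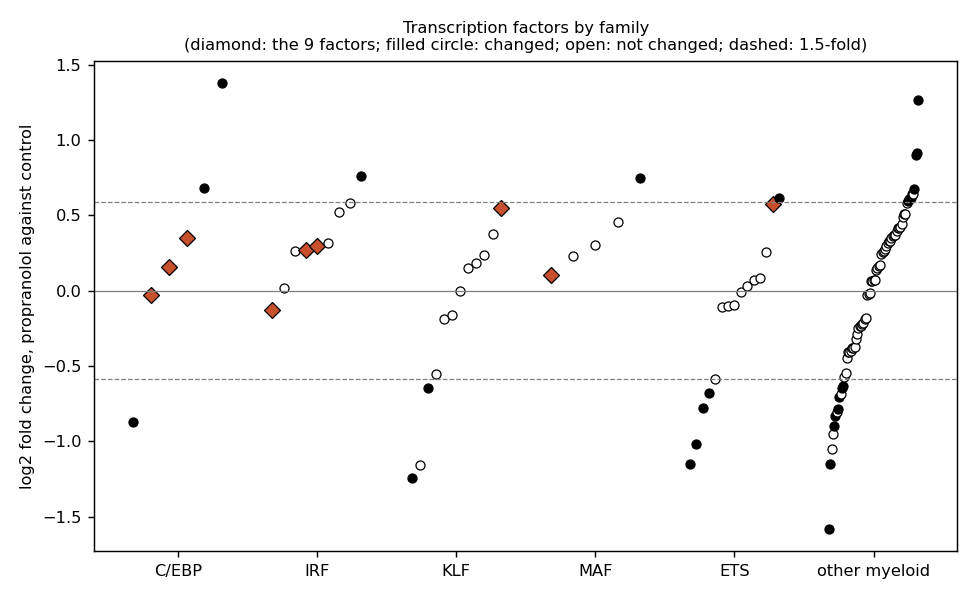
Log2 fold change of each tested transcription factor by family, propranolol against control, with the 9 factors as orange diamonds, called genes as filled circles, others as open circles and dashed lines at 1.5-fold. The 9 factors all lie inside the dashed lines, between -0.13 and 0.57, while at least 1 other gene of each group lies outside.

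Of 71 tested other myeloid factors, 8 rose and 8 fell, beside 12.2% and 15.6% of all tested genes. Id1, an inhibitor of helix-loop-helix factors, rose by 1.26, Rara, a retinoic acid receptor, by 0.91 and Nr4a1, an immediate early nuclear receptor, by 0.90. Gata2, a factor of progenitors and mast cells, fell by 1.58, to 0.743 and 0.786 CPM, Bhlhe41 by 1.15 and Jund by 0.90. Junb, the most abundant, was not called at 0.33. Without the GC trend, Id1, Gata2, Bhlhe41 and Jund remained called, and Rara and Nr4a1 were at 0.58 and 0.56.

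The factors with the most similar pattern over the 4 libraries were found by the distance of centred log2 CPM among 117 candidates. Ets2 was nearest to Spi1 (distance 0.05), followed by Rela. Irf5 was nearest to Klf16 and then to Irf8, and Irf8 was nearest to Irf5 and Irf9. Klf4 was nearest to Egr1 and Fosl2, Cebpb to Id3, Cebpa to Elf2 and Lmo2, Cebpd to Maff and Nfil3, Irf4 to Klf7 and Etv3, and Maf to Lmo2 and Elk1. With 4 libraries these distances only describe the values.

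Among 14 receptors that act upstream of these factors, 3 rose and 3 fell, beside 12.2% and 15.6% of all tested genes. Csf2ra, the GM-CSF receptor chain, was at 422 and 494 CPM in control and at 1006 and 1327 CPM after propranolol (log2 fold change 1.35 ± 0.14 SE, adjusted p by edgeR = 0.000129) and remained called without the GC trend. Il4ra, the IL4 receptor chain that acts on STAT6, rose by 0.83 and Csf1r, the M-CSF receptor and most abundant of the list, by 0.59. They were at 0.52 and 0.32 without the trend, no longer called. Kit, the stem cell factor receptor, fell by 1.21 (-1.09 without the trend), Il13ra1 by 1.03 (-0.29) and Tlr4, the endotoxin receptor, by 0.67, where it became 0.27, the opposite sign, without the trend. Of 12 regulators and cofactors, Ikbke, a kinase acting on IRFs, rose by 0.60 and Trib2, which promotes degradation of C/EBPα, fell by 1.83, from 3.24 and 5.18 CPM to 1.29 and 1.05 CPM. Ep300, the most abundant, was not called at 0.10.

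Known targets of the factors were listed by hand, and some genes stand in more than 1 list. The counts of each list stand beside 12.2% of all tested genes that rose and 15.6% that fell, and beside 7.64% and 4.97% without the GC trend. Of 13 PU.1 targets, 2 rose (Csf2ra and Csf1r) and 2 fell (Ptprc by 0.73 and Tlr4), and without the GC trend 4 were higher, 0 were lower and Ptprc was at 0.20. The median of the list was 0.33. Of 17 tested C/EBP targets, 7 rose and 0 fell, where 12.2% and 15.6% of all tested genes did, with a median of 0.48 against -0.02. Lcn2 rose by 2.33, S100a9 by 2.04, to 83.8 and 82.4 CPM, and Hp by 1.81, and these remained called without the GC trend. Lcn2, S100a9 and Hp are granule or acute phase genes of neutrophils and inflamed myeloid cells. The list shares 6 of its 22 genes with the neutrophil markers, whose summed level was 207 and 224 CPM in control and 398 and 427 CPM after propranolol. The part of neutrophils in these values was not tested.

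Of 10 tested IRF5 and IRF8 targets, Nos2, inducible nitric oxide synthase, rose by 0.64 (0.39 without the GC trend), the list median was -0.06, and Cybb, the most abundant, was not called at -0.50. Of 6 IRF4 targets, 2 rose, among them Chil3 by 1.28, and the median was -0.12. Of 9 MAF targets, 3 rose, namely Cd163, a scavenger receptor, by 0.96, Pf4 by 0.86 and Folr2 by 0.62, while C1qa, the most abundant, was not called at -0.18. Of 7 KLF4 targets, 3 rose, among them Thbd by 0.79 and Cd14 by 0.68. Mrc1, the most abundant, was not called at 0.33 and was called at 0.85 without the GC trend.

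The sorted cells carried macrophage markers at high levels. Adgre1, which encodes F4/80, was at 975 and 1008 CPM in control and at 1151 and 1100 CPM after propranolol, and Itgam, which encodes CD11b, was at 359 and 352 CPM against 369 and 313 CPM. The summed level of 13 macrophage markers was 34157 and 32315 CPM in control and 43294 and 42009 CPM after propranolol, with Apoe the most abundant. Of the 13 markers, 2 rose and 0 fell, beside 12.2% and 15.6% of all tested genes. When each factor was given as a percent of the geometric mean of these markers, Spi1 was at 36.9% and 38.8% in control and at 44.6% and 44.5% after propranolol. Cebpa was at 19.2% and 18.2% in control and at 14.1% and 14.9% after propranolol, and Cebpd at 3.38% and 3.62% against 3.00% and 3.19%. So Spi1 was above its controls on this scale, Cebpa and Cebpd were below them, and the other 6 factors overlapped between the groups. The geometric mean itself was 1292 and 1243 CPM in control and 1646 and 1557 CPM after propranolol, which lowers every percent after propranolol. Nor is it independent of the factors, since the 13 markers share 5 genes with the listed PU.1 targets and 4 with the MAF targets. On the same scale the groups were apart for 73.0% of all tested genes.

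Markers of other cells also moved with the groups, and their counts stand beside the same 12.2% of all tested genes that rose and 15.6% that fell. The 8 monocyte markers summed to 3246 and 2929 CPM in control and to 5376 and 4662 CPM after propranolol, 4 rose, and Fn1 was the most abundant. Of 9 tested neutrophil markers 6 rose, with Csf3r the most abundant. The defining marker Ly6g had few raw counts, 0 and 2 in control and 17 and 8 after propranolol, in libraries of unequal size. Monocytes and neutrophils also express Spi1 and C/EBP factors. The cells had been sorted as positive for CD11b and F4/80, and the study checked their purity. Whether monocytes or neutrophils contributed to these values was not tested. T cell and NK cell markers went the other way. The T cell sum was 274 and 319 CPM in control and 142 and 79.2 CPM after propranolol (9 of 10 fell, Cd8a the most abundant), and the NK cell sum was 114 and 119 CPM against 46.6 and 23.0 CPM (7 of 7 fell, Prf1 the most abundant). The dendritic cell sum, relevant to Irf4 and Irf8, was 94.9 and 78.3 CPM against 52.9 and 49.0 CPM (5 of 9 fell, Fscn1 the most abundant). With the GC trend removed, 2 dendritic cell, 9 T cell and 6 NK cell markers were lower, and 5 monocyte and 7 neutrophil markers were higher. Of all tested genes, 4.97% were lower and 7.64% higher there.

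The fibroblast or sarcoma cell sum was 3323 and 1268 CPM in control and 720 and 752 CPM after propranolol (7 of 9 fell, Col3a1 the most abundant), with control replicate 1 the highest. The B cell sum was 196 and 219 CPM against 228 and 247 CPM, where 2 of 6 tested rose and 1 fell and Ighm was the most abundant. The endothelial sum was 51.9 and 48.5 CPM against 64.4 CPM in both propranolol libraries (1 of 6 tested rose, Pecam1 the most abundant). With the GC trend removed, 0 B cell and 0 endothelial markers were called in either direction, and 6 fibroblast or sarcoma cell markers were lower. Mast cell, basophil and eosinophil markers summed to 12.5 and 12.2 CPM against 8.33 and 9.30 CPM, with Kit the most abundant and Ms4a2 and Epx at 0 counts in all 4 libraries. The part of any of these cells in the values of the 9 factors was not tested.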

How the data were processed

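RNA of sorted TAMs was sequenced in 4 libraries, 2 per group. The authors deposited raw counts of fragments per gene, made per the labels and methods by alignment to mm10 with STAR 2.7.1a, filtering with SAMtools 1.9 and exon counting with featureCounts 1.6.4. The annotation release is not given in the sources used here, and the stated parameters name no strand option. All count columns were matched to samples by the number in the labels, and 54079 of 54146 identifiers matched GENCODE M21.

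DESeq2 1.42.0, limma 3.58.1 and edgeR 4.0.16 were run in R 4.3.3. Genes were filtered with filterByExpr at a minimum count of 10, scaled by TMM and tested over 14688 genes with the edgeR quasi-likelihood test without covariates. SEs came from the coefficient and F statistic, and 95% intervals are not adjusted. The GC correction removed, through offsets, a natural spline (5 degrees of freedom) of each library's log2 deviation on GC content of the longest transcript. TPM used all exons of a gene, or the longest transcript where stated. The steps were run on simulated data with planted changes larger than that of any factor examined. Those runs do not show how differences of the size seen here are recovered.

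The members and lists were chosen with earlier results of these data known. Named were all members and, from each other list, up to 3 called genes of largest change in each direction and the most abundant gene, with the 2 nearest factors per member by distance of centred log2 CPM. Some genes that this rule names are not reported here. For a gene with 2 identifiers (Ddit3) the one with more counts was used. Total counts per library ranged from 13798249 to 39818103. Alternatives were other scalings, filters, tests and thresholds, each library left out, a replicate block and, added after the data were seen, the GC correction with a library left out. A fit with a library left out has a group without a replicate. Its p-values do not measure the spread within that group, and only its effect sizes are given.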

Additional observations from a re-analysis of the deposited data

How the results depend on the processing

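All 9 factors were recomputed under each alternative. Without a filter on low counts, 2 of 9 were called, Spi1 at 0.65 and Klf4 at 0.62, where 15.8% of all genes were, and Cebpa was at 0.046. With 1 library left out, log2 fold changes ranged from 0.53 to 0.65 for Spi1, -0.035 to 0.34 for Maf and -0.075 to 0.10 for Cebpa. They ranged from 0.16 to 0.64 for Cebpb, -0.38 to 0.13 for Irf4 and 0.37 to 0.75 for Klf4. With the GC correction Irf4 was at 0.053 and Irf5 at -0.042. With that correction and a library left out, an alternative added after the data were seen, Irf4 was at -0.052 and 0.24 without control replicates 1 and 2 and at 0.33 and -0.19 without propranolol replicates 1 and 2, and Irf5 was at -0.043 and -0.0030 and at -0.13 and 0.085. At the adjusted p alone 4 of 9 passed. Mean levels without TMM factors reversed for Maf (log2 ratio -0.12 in CPM, -0.13 in TPM over all exons and -0.14 over the longest transcript) and Cebpd (-0.073, -0.079 and -0.092), moved closer to 0 for Spi1, Cebpb, Irf5, Irf8 and Klf4 and moved away from it for Cebpa and Irf4. The causes were not tested.

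Of all tested genes, 4084 were called, 1851 with the GC correction (1824, 2177, 1728 and 2078 without control replicates 1 and 2 and propranolol replicates 1 and 2), 1093 by glmTreat against 1.5-fold, 6204 at the adjusted p alone and 728 beyond 1.5 on the log2 scale. Over the related lists, 49 genes were called, 29 with the GC correction (31 to 36 with a library also left out), 16 by glmTreat, 89 at the adjusted p alone and 5 beyond 1.5.

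The libraries share replicate numbers only. Their deviations from the group means correlated at 0.17 with 2 pairs, which does not show pairing. With the replicate number as a block, 4362 genes and 0 of 9 factors were called, and Cebpb had an adjusted p by edgeR of 0.0167. With the block and the GC correction, 2126 genes and 0 of 9 factors were called, the adjusted p by edgeR was 0.0104 for Cebpb, 0.0152 for Cebpa, 0.0308 for Maf and 0.0374 for Spi1, Irf4 was at 0.065 and Irf5 at -0.045. With 2 libraries per group, the intervals state the precision of each factor, and that of Irf4, the lowest in level, was the widest of the 9.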
